A study of Mus musculus with 6 samples.

Results

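The Krueppel-like factors described here are 8 transcription factor genes, Klf2, Klf3, Klf4, Klf6, Klf7, Klf10, Klf12 and Klf13, chosen by gene symbol out of 19938 mouse genes with a probe set of their own on Affymetrix mouse Gene 1.0 ST arrays. Each of the 8 was read by a single probe set. RNA came from freshly isolated, resting CD8+ T cells (CD8-TC) of spleen, with 1 array for each of 6 male ICR mice aged 6 weeks. Of these mice, 3 were WT (Runx3 +/+) and 3 were Runx3-/-, so that all groups shared sex, age and an outbred stock. WT cells were selected on anti-CD8 beads, whereas Runx3-/- cells were also sorted by FACS to take out CD11c+ dendritic cells, although one label mentions FACS for all samples. The additional sort and the genotype cannot be told apart in these arrays. Values are RMA signals on the log2 scale, in which a step of 1 is a doubling, and a difference is always Runx3-/- minus WT. The levels of different genes are not compared, because each probe set has its own brightness.

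Krueppel-like factors bind GC-rich and CACCC-type sites in DNA through a cluster of zinc fingers at the carboxyl end of the protein, and the Sp factors are their closest relatives. In T cells Klf2 is known for keeping resting cells quiescent and for switching on S1pr1, the receptor that lets lymphocytes leave lymphoid organs, and it is turned off when the antigen receptor is triggered. Klf4 restrains the division of CD8+ T cells, Klf13 acts on the chemokine gene Ccl5 in activated T cells, and Klf3 and Klf12 are repressors that recruit the corepressor CtBP.

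Klf7 was the only member of the 8 that differed between genotypes, 1.53-fold higher in Runx3-/- CD8-TC. Klf2, Klf3, Klf6, Klf12 and Klf13 did not pass the test, and the signals of Klf4 and Klf10 stayed below the median of the array in all 6 arrays. Genes were tested with limma when they reached the array median in at least 1 array, and p-values were adjusted over all 9924 tested genes by the Benjamini-Hochberg method. Of the 6 members tested, 1 rose, 0 fell and 5 did not pass at an adjusted p of 0.05. Over all tested genes 11.6% were called, 5.63% as higher, so that 1 call among 6 members does not set the group apart from other genes. The median difference was 0.09 for the 6 members and 0.01 for all tested genes. The all-gene calls comprised 559 genes higher and 595 lower, which became 197 higher and 604 lower when each array was centred on its mean over 8 T cell marker genes, a setting chosen after seeing the data.

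The DNA upstream of the genes is shown first for the gene that moved and for the pair of members with most RUNX motif matches. RefSeq start sites (build GRCm38.p6) were found for 7 of the 8 genes, with Klf10 unmatched, and the 250 bases before each start were searched on both strands. The RUNX motif was taken as TGTGGT or its form TGTGGC, with the variants TGCGGT and also TGCGGC, and the site of the Krueppel-like factors themselves as CCNCNCCC. No match of the 2 motifs overlapped the other in these windows. Matches are capitals. The Klf13 window (chr7:63938916-63939165, minus strand) held 3 RUNX matches, the most among the members, and the Klf2 window (chr8:72318812-72319061, plus strand) held 2. The Klf7 window held 0 RUNX matches and several overlapping CCNCNCCC matches on the reverse strand, of which 27 bases are printed (chr1:64121501-64121527, minus strand).
Klf13: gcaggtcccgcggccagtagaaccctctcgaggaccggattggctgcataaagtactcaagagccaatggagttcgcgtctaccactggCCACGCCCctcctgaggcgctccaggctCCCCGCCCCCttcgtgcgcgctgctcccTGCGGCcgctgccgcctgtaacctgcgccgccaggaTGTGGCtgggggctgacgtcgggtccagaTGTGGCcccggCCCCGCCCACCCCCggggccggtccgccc
Klf2: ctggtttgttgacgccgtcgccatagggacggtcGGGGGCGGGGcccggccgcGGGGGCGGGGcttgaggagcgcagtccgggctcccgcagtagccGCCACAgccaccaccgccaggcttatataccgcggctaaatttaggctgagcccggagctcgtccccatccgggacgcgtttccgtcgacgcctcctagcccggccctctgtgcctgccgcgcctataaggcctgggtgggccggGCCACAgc
Klf7: GGGTGGGGGGTGGGGagggaagggaag
A RUNX match stood in 4 of the 7 windows (Klf2, Klf3, Klf4 and Klf13), beside 38.0% of 32851 promoter windows of the same length. A CCNCNCCC match stood in all 7, beside 45.9%. The share of G and C in the members' windows ran from 48.0% in Klf12 to 78.4% in Klf3, and the share over all promoter windows was not computed. The start used for Klf7 lies 956 bases inside the annotated span of that gene, and the start for Klf12 lies 136095 bases inside, so that other starts of these genes were not searched. A match of letters is a description and not a binding site, and a window without a match says nothing about Runx3.

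The Klf7 protein is best known as a factor of nerve cell growth, and the gene is also transcribed in many other tissues. Its probe set (10355141) read 6.58, 6.47 and 6.25 in WT replicates 1, 2 and 3, and 7.17, 7.09 and 6.88 in Runx3-/- replicates 1, 2 and 3. The lowest Runx3-/- array lay above the highest WT array, so that the groups did not overlap, as in 33.6% of all tested genes. The difference of 0.61 ± 0.12 (SE, n = 3 mice per group), with a 95% interval from 0.34 to 0.89, was larger than the SD within each group, 0.17 in WT and 0.15 in Runx3-/- (limma adjusted p = 0.0159). Klf7 also met the thresholds of the methods, a change of 1.5-fold and a p under 0.05, as did 8.07% of the tested genes. Without Runx3-/- replicate 2 the difference was 0.59 and did not pass (limma adjusted p = 0.0592), and without moderation of variances across genes the adjusted p was 0.115. Under 3 of 17 alternatives the difference was smaller than 1.5-fold, with a lowest value of 0.52. Several of the 17, such as the signal filters, can change the p-value but not the difference.

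**Figure D1:**
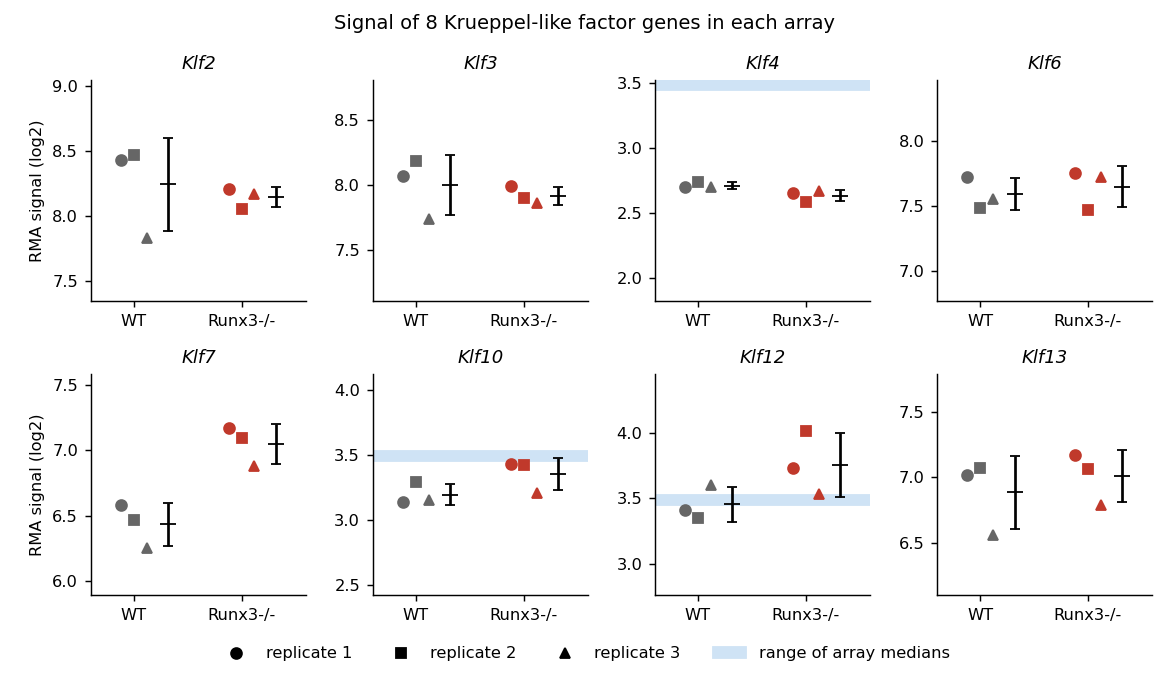
RMA signal on the log2 scale (vertical axes) of the 8 genes in WT (grey) and Runx3-/- (red) arrays, with a marker shape for each replicate and the mean and SD of n = 3 in black. The blue band spans the array medians, 3.45 to 3.53. All panels cover the same range of log2 units. Klf7 alone has separate groups above that band, from 6.25 to 6.58 in WT and from 6.88 to 7.17 in Runx3-/-.

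Klf2 and Klf3 gave no detectable difference between genotypes. The Klf2 probe set (10572800) read 8.43, 8.47 and 7.83 in WT mice and 8.21, 8.06 and 8.17 in Runx3-/- mice. All 3 Runx3-/- values lay between the lowest and the highest WT value. The difference of -0.10 ± 0.17 (SE) had a 95% interval from -0.48 to 0.28 (limma adjusted p = 0.743), and its sign turned without WT replicate 2 (0.013). The spread among WT arrays (SD 0.36) exceeded that among Runx3-/- arrays (SD 0.08), which rested on WT replicate 3, and without that array the difference was -0.31 and still did not pass (limma adjusted p = 0.116). Klf3 (probe set 10522051) read 8.07, 8.18 and 7.74 in WT mice and 7.99, 7.90 and 7.86 in Runx3-/- arrays. The Klf3 values of Runx3-/- cells again fell within the WT range, at a difference of -0.08 ± 0.13 (SE) and a 95% interval from -0.37 to 0.21 (limma adjusted p = 0.718), with a sign that turned without WT replicate 2 (0.010).

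Klf13, Klf6 and Klf12 also overlapped between the genotypes. Klf13 (probe set 10564290) read 7.02, 7.08 and 6.56 in WT mice and 7.17, 7.06 and 6.79 in Runx3-/- arrays. Replicate 3 was the lowest of both groups, and the difference was 0.12 ± 0.16 (SE, limma adjusted p = 0.664), or -0.039 without WT replicate 3. Klf6, a widely transcribed factor, gave 7.72, 7.49 and 7.55 in WT mice and 7.75, 7.47 and 7.72 in Runx3-/- arrays (probe set 10403352). At 0.06 ± 0.11 (SE) it had the narrowest 95% interval among the 6 tested members, from -0.20 to 0.32 (limma adjusted p = 0.775), and its sign turned when arrays were centred on T cell markers (-0.034). The repressor gene Klf12 (probe set 10422013) read 3.41, 3.35 and 3.61 in WT mice and 3.73, 4.02 and 3.53 in Runx3-/- arrays. Only 4 of its 6 values reached the array median, so that Klf12 lay near background. A difference of 0.30 ± 0.14 (SE), with a 95% interval from -0.01 to 0.62, was the nearest to the threshold among the 5 members that did not pass (limma adjusted p = 0.198). It rested in part on single arrays, at 0.17 without Runx3-/- replicate 2 and 0.42 without Runx3-/- replicate 3, and did not pass in either case.

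Klf4 and Klf10 were below the array median throughout and were not tested in the main comparison. Klf4 (probe set 10513008) read 2.70, 2.74 and 2.70 in WT mice and 2.66, 2.59 and 2.67 in Runx3-/- arrays. These values do not overlap, but they differ by only -0.08 and lie below the 25th percentile of every array, which was 2.87 to 2.93. Klf10, which encodes a factor induced early by TGF-beta, read 3.14, 3.29 and 3.15 in WT mice and 3.43, 3.42 and 3.21 in Runx3-/- arrays (probe set 10428302). In a fit without the filter on signal neither gene passed (limma adjusted p = 0.573 for Klf4 and 0.375 for Klf10). A change of either gene may be understated at such signals.

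**Figure D2:**
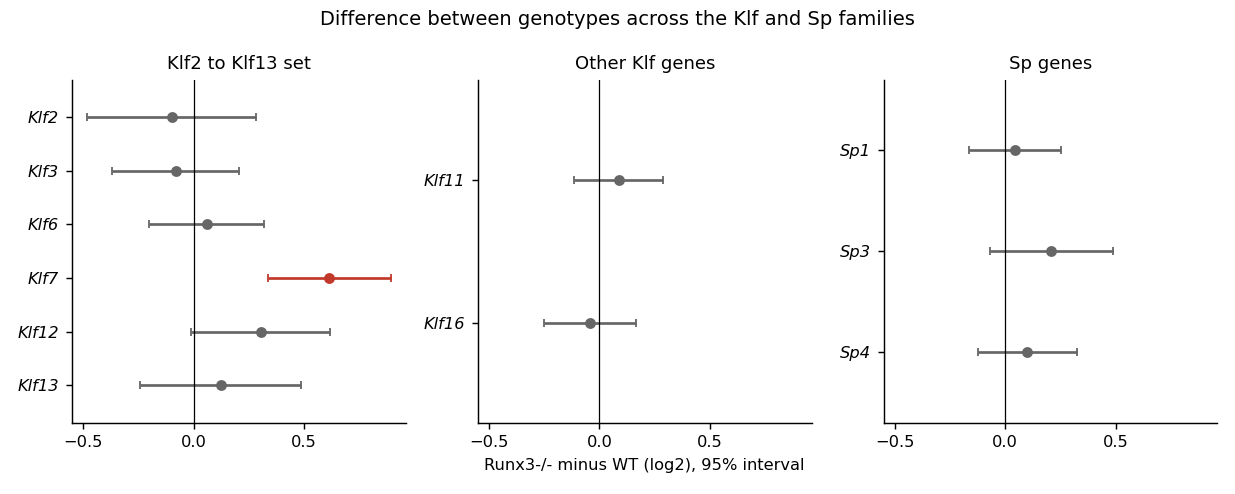
Difference between Runx3-/- and WT on the log2 scale (horizontal axis) with its 95% interval from limma for each tested gene (vertical axis) of the Klf set described here, of other Klf genes and of Sp genes, n = 3 mice per group. Red marks an adjusted p under 0.05. Klf7, at 0.61, is the only red point, and the intervals of the other 10 genes include 0.

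The rest of the family gave no call. Of 9 other Klf genes 7 were below the array median in all arrays, among them the erythroid factor Klf1. The 2 that were tested, Klf11 and Klf16, gave 0.09 and -0.04 and did not pass, and the sign of each turned under at least 1 alternative. Of 8 Sp genes on the arrays 3 were tested and 0 passed limma, also at an unadjusted p under 0.05, with Sp3 at 0.21 ± 0.12 (SE, limma adjusted p = 0.308). Sp1 and Sp4, like Sp3 widely used activators at GC-rich promoters, gave 0.04 and 0.10.

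WT replicate 3 was the lowest WT array for 4 of the 6 tested members, Klf2, Klf3, Klf7 and Klf13. It was the lowest for 41.5% of all tested genes. Among Runx3-/- arrays replicate 3 was the lowest for Klf3, Klf7, Klf12 and Klf13, and for 48.2% of all tested genes. Cell type markers also differed among these arrays. The mean over 8 T cell markers, such as Cd3g and Cd8a, was 10.09, 10.05 and 9.84 in WT replicates 1, 2 and 3 and 10.21, 10.08 and 9.98 in Runx3-/- replicates 1, 2 and 3, lowest in both groups in replicate 3. Of these 8 markers 0 passed limma (1 had an unadjusted p under 0.05), with a median difference of 0.16, and all lay above the array median in every array. The mean over 10 dendritic cell markers, with Cd74 and Wdfy4 among the brightest, was 6.15, 6.14 and 6.94 in WT replicates 1, 2 and 3, highest in replicate 3. In Runx3-/- replicates 1, 2 and 3 it was 5.46, 6.05 and 5.46, so that replicate 3 was not high there. Itgax, which encodes CD11c, was likewise highest in WT replicate 3, at 6.83 against 5.52 and 5.001, and read 4.78, 5.36 and 4.47 in Runx3-/- arrays. The B cell list mean was highest in WT replicate 3 as well (6.35, 6.74 and 7.11 in WT replicates 1, 2 and 3). Among WT arrays so was the natural killer cell list mean (3.95, 3.88 and 4.16). The macrophage, neutrophil and endothelial or stromal list means were lowest there among WT arrays, at 6.71, 3.24 and 3.44. The part of any of these cells in the low signals of WT replicate 3 was not tested.

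Markers of other cells differed between the genotypes in the same arrays. The counts below stand beside 6% of all tested genes called as lower, 5.63% as higher and 11.6% in either direction. Of 9 tested B cell markers, such as Cd79a (-3.20), 9 fell, with list means of 6.35 to 7.11 in WT and 4.12 to 4.35 in Runx3-/- arrays. For macrophages 9 of 9 tested markers fell, such as Hmox1 (-3.71) and Lyz2 (-2.81), with list means from 6.71 to 6.86 and from 4.07 to 4.58. Erythroid markers fell in 7 of 9 cases (4.81 to 5.46 and 3.58 to 3.69), and dendritic cell markers in 3 of 9 (6.14 to 6.94 and 5.46 to 6.05). The 3 dendritic cell markers that fell were Ly75, Wdfy4 and Ciita. The other 6 tested, Itgax, Flt3, Xcr1, Clec9a, Batf3 and Cd74, overlapped between the genotypes and did not pass. The part of B cells in the 3 falls was not tested. The dendritic cell count was 0 without Runx3-/- replicate 3. Without moderation of variances 6 B cell, 6 macrophage, 2 erythroid and 0 dendritic cell markers fell. Of 10 markers each of natural killer cells, neutrophils and endothelial or stromal cells, 4, 6 and 8 were below the array median in all arrays, and the tested ones gave 1 rise and 1 fall of 6, 2 falls of 4 and 1 fall of 2. The neutrophil count was 0 without WT replicate 1 and also 0 with any 1 Runx3-/- array left out. Without moderation of variances the neutrophil and the endothelial or stromal counts were 0, and natural killer cell markers gave 1 fall and 0 rises. Of the markers that fell, Fcer2a, Ebf1, Slc4a1, Car1, Epb42, Rhag, S100a8, Ngp and Sparc reached the array median only in WT arrays. Their entry to the test rested on high WT signals, which favoured a call as a fall. In a fit without the filter on signal 9 B cell, 9 macrophage, 6 erythroid, 3 neutrophil and 1 endothelial or stromal marker fell. In that fit 2 dendritic cell markers fell, and natural killer cell markers gave 1 fall and 0 rises. The macrophage marker Cd14 and the dendritic cell marker Zbtb46 were below the array median throughout, and no RMA signal was at 0. In RNA from a whole sample, fewer cells of a type and less RNA per cell cannot be told apart. The Klf7 difference was 0.52 ± 0.11 (SE) when every array was centred on its T cell markers, and it still passed (limma adjusted p = 0.0209). The part of the other markers in the Klf7 rise was not tested.

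**Figure D3:**
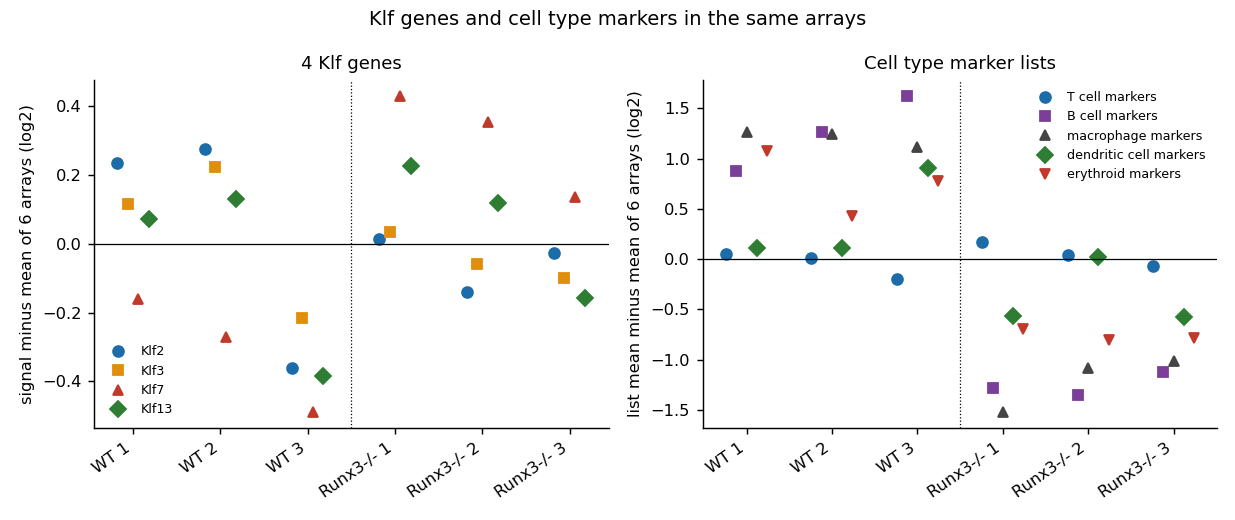
Signal minus the mean of the 6 arrays, on the log2 scale (vertical axes), in each array (horizontal axes) for Klf2, Klf3, Klf7 and Klf13 (left) and for the mean of 5 cell type marker lists (right). The dotted line separates WT from Runx3-/- arrays. In WT replicate 3 all 4 genes are at their lowest among WT arrays, and the T cell list mean (9.84) is the lowest of the 6. The dendritic cell (6.94) and B cell (7.11) list means are the highest of the 6 there, and the macrophage list mean (6.71) the lowest among WT arrays. B cell and macrophage markers are high in all WT arrays and low in all Runx3-/- arrays.

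Genes known to act on Klf2 or Klf4 were examined as a list, of which 1 fell, 0 rose and 9 did not pass among 10 tested, close to the 11.6% over all tested genes. The gene that fell was Mef2c, a MADS box factor that drives Klf2 in endothelium and is also a factor of B and myeloid cells. Its signals were 5.48, 5.97 and 6.35 in WT mice and 4.59, 4.55 and 4.60 in Runx3-/- arrays, a difference of -1.35 ± 0.19 (SE, limma adjusted p = 0.00378), which did not pass without moderation of variances (adjusted p = 0.0982). Among WT arrays Mef2c and the B cell list mean were both lowest in replicate 1 and highest in replicate 3, and the part of B cells in its fall was not tested. Foxo1, which activates Klf2 in T cells, gave 0.08 ± 0.17, and Elf4, which acts on Klf4 in CD8+ T cells, gave -0.11 ± 0.13. Mef2a (-0.31), Map2k5 (0.24) and Mef2d (0.17), the others with the lowest p, did not pass, at limma adjusted p from 0.11 to 0.244.

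Among partner proteins that Krueppel-like factors recruit, 1 of 9 tested genes rose and 0 fell, 11.1% beside 11.6% of all tested genes. Hdac1, a histone deacetylase of corepressor complexes, read 9.15, 9.06 and 8.99 in WT mice and 9.63, 9.55 and 9.48 in Runx3-/- arrays. The groups did not overlap, at a difference of 0.49 ± 0.09 (SE, limma adjusted p = 0.0137), which with the centring on T cell markers was 0.39 and did not pass (limma adjusted p = 0.0678). The acetyltransferase gene Kat2b gave 0.44 ± 0.13 (limma adjusted p = 0.0658), and the deacetylase gene Hdac2 and the coactivator gene Ep300 gave -0.13 and -0.12. Ctbp1, which encodes the corepressor of Klf3 and Klf12, gave -0.01 ± 0.10, and Ctbp2 was below the array median in every array.

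Of 13 measured genes known as targets of a Krueppel-like factor, 12 were tested and 0 passed limma at an adjusted p of 0.05 (3 had an unadjusted p under 0.05, beside 27.7% of all tested genes), and 3 had groups that did not overlap, beside 33.6%. The median difference was 0.18 over the 12, with 9 above 0 and 3 below, 0.01 over all tested genes and 0.16 over the 8 T cell markers. Targets were not separated by whether their factor raises or lowers them, so these signs do not measure the activity of the factors. The part of the T cell markers in the target differences was not tested. S1pr1, the best known target of Klf2, read 9.95, 10.08 and 9.51 in WT mice and 9.99, 10.12 and 9.84 in Runx3-/- arrays. The groups overlapped, the lowest WT value was again that of replicate 3, and the difference was 0.13 ± 0.16 (SE, limma adjusted p = 0.626). Ccr7, the receptor for homing to lymph nodes, gave 10.005, 9.92 and 9.64 in WT mice and 10.35, 10.27 and 10.14 in Runx3-/- arrays. Its groups did not overlap, yet a difference of 0.40 ± 0.12 (SE) did not pass (limma adjusted p = 0.0679). Itgb7, an integrin chain for homing to the gut, gave 0.32 ± 0.12 (limma adjusted p = 0.138). Lgals3, which encodes galectin-3 and is abundant in macrophages, gave -0.70 ± 0.20 (limma adjusted p = 0.0619), in arrays in which macrophage markers fell. Among WT arrays Lgals3 was highest in replicate 3 (5.60), where the macrophage list mean was lowest (6.71). Among Runx3-/- arrays Lgals3 was lowest in replicate 3 (4.14), where that list mean was highest (4.58). The part of macrophages in the Lgals3 difference was not tested. Tgfbr1, a TGF-beta receptor gene, gave 0.29 ± 0.14 (limma adjusted p = 0.219), and Ccl5, the target of Klf13, gave 0.42 ± 0.27 (limma adjusted p = 0.351). For Cxcr3, a chemokine receptor that WT replicate 3 showed at 8.74 against 7.49 and 7.50 in the other WT arrays, the difference of 0.31 ± 0.31 became 0.73 without that array and then passed (limma adjusted p = 0.0132).

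**Figure D4:**
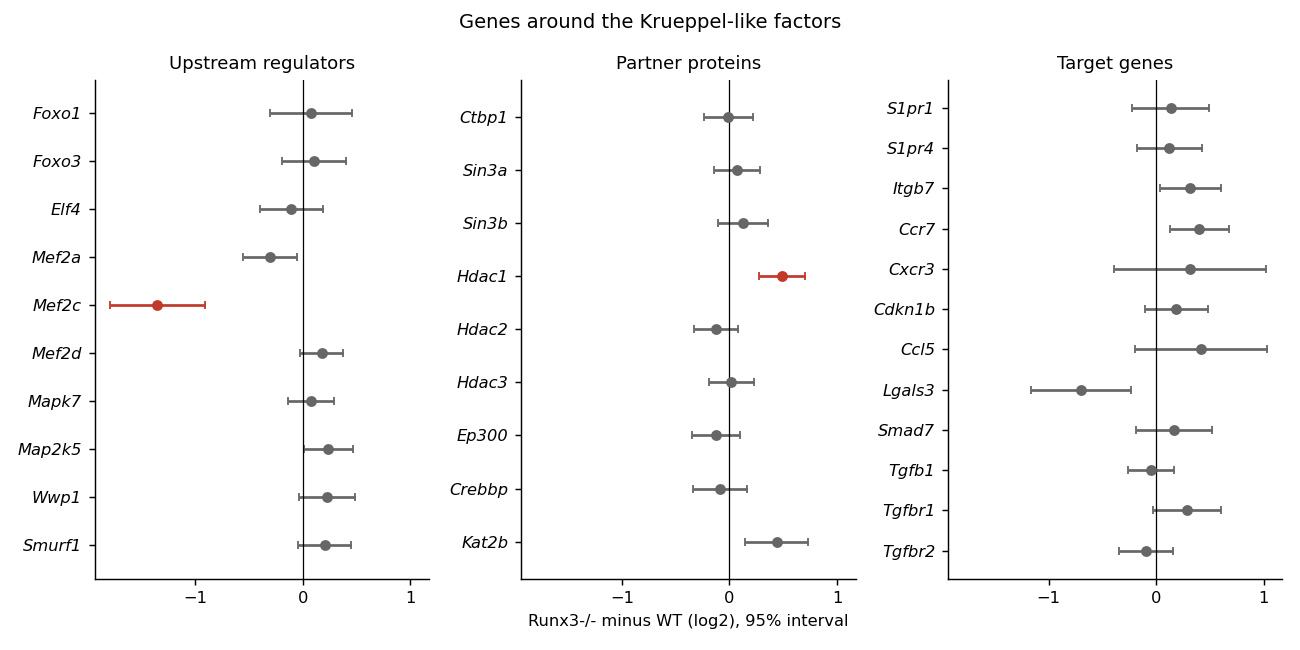
Difference between Runx3-/- and WT on the log2 scale (horizontal axis) with its 95% interval from limma for tested genes (vertical axis) that act on Klf2 or Klf4, encode partner proteins, or are known targets, n = 3 mice per group. Red marks an adjusted p under 0.05, which only Mef2c (-1.35) and Hdac1 (0.49) reached.

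Immediate early genes, which respond within minutes to stimulation or to handling of cells, were read beside the members. Among such stimuli, triggering of the antigen receptor turns Klf2 off. Of 12 in the list 5 (Fos, Fosb, Jun, Ier3 and Atf3) were below the array median in all arrays. Of the 7 tested, 2 rose and 0 fell, beside 5.63% of all tested genes that rose and 11.6% called in either direction. These were the nuclear receptor Nr4a1 (0.87 ± 0.13, SE) and the phosphatase gene Dusp1 (0.69 ± 0.18), with limma adjusted p of 0.00497 and 0.043. Btg2 (0.20), Ier2 (0.32), Egr1 (0.18), Egr2 (0.14) and Junb (-0.10) did not pass. The call of Dusp1 was lost under 9 of 17 alternatives, and that of Nr4a1 without moderation of variances (limma adjusted p = 0.0853). In a fit without the filter on signal Dusp1 did not pass and Ier3 fell (-0.51, limma adjusted p = 0.0147), which left 1 gene higher and 1 lower. Whether handling has a part in any difference of the members was not tested.

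The 3 genes whose signal followed that of Klf7 most closely over the 6 arrays, as deviations from each gene's own mean, were Abtb2, Gpc1 and Smc4. Their root mean square distance from Klf7 was 0.047, 0.048 and 0.054 on the log2 scale. Smc4 is a subunit of condensin, which packs chromosomes, and Gpc1 is a cell surface proteoglycan. Each was higher in Runx3-/- cells, by 0.58, 0.61 and 0.52 (limma adjusted p = 0.0223, 0.0174 and 0.0203), and each had its lowest value in replicate 3 of both groups. As the genes were picked for their likeness to Klf7, these differences are a description.

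The targeted gene did not check the genotypes. The Runx3 probe set read 7.09, 7.30 and 6.99 in WT mice and 7.06, 7.17 and 7.64 in Runx3-/- arrays, a difference of 0.16 ± 0.16 (SE, limma adjusted p = 0.559). The sources used here do not say which part of the transcript it reads relative to the deletion. Across tested genes the correlation was at least 0.985 between mice of 1 genotype and at most 0.971 between WT and Runx3-/- mice. Markers of other cell types also differed between the groups, so these correlations do not check the genotypes either.

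**Figure D5:**
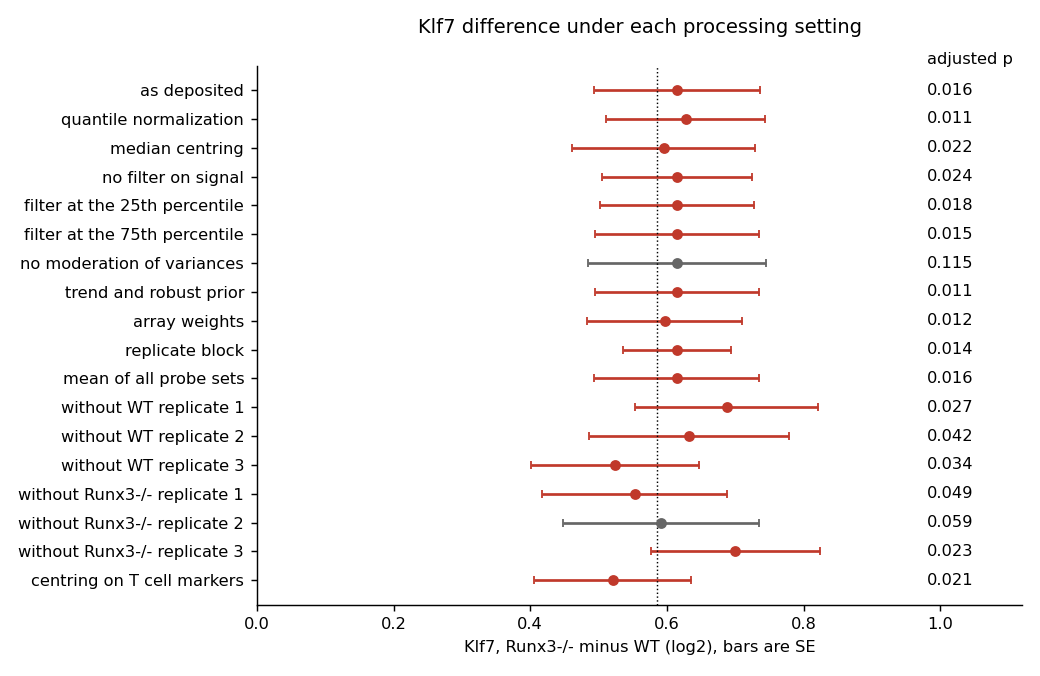
Klf7 difference between Runx3-/- and WT on the log2 scale (horizontal axis, starting at 0) with its SE and limma adjusted p under the values as deposited and 17 alternatives (vertical axis). Red marks an adjusted p under 0.05, grey a higher one, and the dotted line a change of 1.5-fold. The difference stays between 0.52 and 0.70, and 2 of the 17 alternatives are grey. Signal filters, other or no moderation of variances, the replicate block and the mean over probe sets cannot move it from 0.61.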

How the data were processed

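Labeled cDNA of 6 mice, 3 WT and 3 Runx3-/-, was hybridized by the authors to Affymetrix mouse Gene 1.0 ST arrays. Deposited values are log2 signals that the authors obtained in Partek Genomics Suite by RMA with GC correction. The submitters' processing notes name Partek and RMA, and the sources used here state neither their versions nor a genome build. Genotype and replicate were read from sample titles, with 1 mouse per array. GEO's platform annotation gave 21789 of 35399 probe sets a single gene symbol, 1621 several and 11989 none, and the brightest probe set stood for a gene. A gene was tested when it reached the array's 50th percentile in at least 1 array. Differences were tested two-sided with limma 3.58.1 in R 4.3.3 (lmFit, eBayes, no covariates), with Benjamini-Hochberg adjustment over 9924 genes. The code was tested on simulated data. The members, gene lists and tests were chosen with earlier results of these data known. Named were all 8 members, Runx3, up to 4 genes of the lowest p in each list, with the brightest markers, and the 3 nearest profiles to Klf7. S1pr1, Cxcr3, Ccl5, Foxo1, Elf4, Ctbp1, Ctbp2, Klf1, Itgax, Cd14, Zbtb46, Junb, Ier3, Fos, Fosb, Jun and Atf3 were named outside this rule, after their values were seen. The same holds for Ebf1, Epb42, Rhag, Flt3, Xcr1, Clec9a, Batf3, Egr1 and Egr2. Alternatives covered scaling, filters, variance models, a replicate block and left-out arrays. The number of arrays limits the precision.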

Additional observations from a re-analysis of the deposited data

How the results depend on the processing

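The Klf7 difference stayed above 0 under all 17 alternatives and passed under 15. Its sign was largely fixed in advance. The signal filters, other or no moderation of variances, the replicate block and the mean over probe sets could not move it from 0.61. As the Klf7 groups did not overlap, leaving out 1 array could not turn its sign. The number of Klf members that differed was 1 in the main comparison, 0 without moderation of variances and between 0 and 1 when single arrays were left out (0 without Runx3-/- replicate 2). Of members that did not pass, Klf2 (0.013) and Klf3 (0.010) turned sign without WT replicate 2, Klf13 (-0.039) without WT replicate 3, and Klf6 (-0.034) under centring on T cell markers. With single arrays left out Klf2 ranged from -0.31 to 0.013, Klf3 from -0.21 to 0.010, Klf12 from 0.17 to 0.42 and Klf13 from -0.039 to 0.23. Over all genes 1154 differed, 178 without moderation of variances and between 623 and 924 with an array left out (623 without WT replicate 1, 632 without Runx3-/- replicate 2, 624 without Runx3-/- replicate 3). Without moderation 0 upstream regulators and 0 partner genes passed. Partner genes numbered 2 with the replicate block, which added Kat2b, and 0 under centring on T cell markers. Target genes numbered 2 under quantile normalization (Ccr7 and Lgals3), 1 with a trend and robust prior and 1 with the replicate block (Ccr7 in both), and from 0 to 1 with an array left out (Cxcr3 without WT replicate 3). The sample titles do not say whether mice of the same replicate number were paired. Deviations of same-numbered arrays correlated at 0.177, 0.032 and -0.00014, and 2 of 6 arrays correlated best with the array of their own number. With 3 arrays per group these values cannot exclude a pairing. The replicate block changed the SE of Klf7 from 0.12 to 0.08, of Klf13 from 0.16 to 0.09 and of Klf12 from 0.14 to 0.15. With the replicate block 1084 genes differed. The cause of these changes was not tested. Signals below the array median limit what can be said of Klf4, Klf10 and Klf12.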
